A study of Vitis vinifera with 40 samples.

Results

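Somatic embryos of grapevine (*V. vinifera*) were compared between 2 culture media, both in constant dark. The 12 libraries of early induction (EI), pre-globular (PG), globular 1 (G1) and globular 2 (G2) cultures on auxin medium were set against the 12 libraries of heart (H), torpedo 1 (T1), torpedo 2 (T2) and cotyledonary 1 (C1) embryos on hormone-free medium. These 24 libraries were taken by their labelled medium and light from 40 libraries in all, with 3 replicates per stage. Libraries from later stages were grown in long day and were left out.

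All embryos descended from immature anthers with filaments of the cultivar "Malvasia Istriana", and each sample pooled 50 to 70 embryos or, in EI, cells and small cell clusters kept in liquid induction medium and sieved. The study's methods state that the auxin medium held a pair of synthetic auxins together with the cytokinin BAP, and that the hormone-free medium held activated charcoal. Globular embryos were moved from the first to the second medium. Pre-globular embryos were mainly attached to explant tissue. Per the study's methods, pre-globular and globular embryos were isolated by sieving, and embryos from H on with forceps and a needle. Each stage was grown on 1 medium. The effects of auxin, cytokinin, charcoal, age, embryo stage and way of isolation therefore cannot be told apart. Every difference below is one between these 2 sets of stages. That replicates came from separate cultures is not stated in the labels, and p-values measure only the spread between these samples.

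Auxin is the plant hormone that, in culture, drives somatic cells to form embryogenic cell masses, and somatic embryos usually pass beyond the globular stage only after it is withdrawn. Cells respond to auxin by transcribing early response genes and by moving and conjugating the hormone. Cytokinin acts through a phosphorelay in which B-type response regulators activate transcription and A-type regulators, whose genes are induced by cytokinin, dampen the signal. In bulk samples such as these, fewer cells of a type and less RNA per cell cannot be told apart.

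The hormone-free libraries tended to hold more counts in genes, with 22120161 to 31139525 per library against 17246233 to 24785414 on auxin. These counts cover reads assigned to genes, not all reads sequenced. On the means of the 8 stages, 4 against 4, this difference gave an exact two-sided permutation p of 0.0571, where the smallest p the design allows is 0.0286. Between 24835 and 27540 genes had a count per library. The 10 most abundant genes took 8.97% to 24.8% of the counts on auxin (median 17.5%) and 5.04% to 21.8% on hormone-free medium (median 11.2%). The exact permutation p of that difference over stages was 0.0286. That p depended on single libraries and was 0.0571 without EI replicate 2 or without EI replicate 3 and 0.114 without T2 replicate 1 or without T2 replicate 2. The replicates of C1 lay farther apart than those of any other stage, and C1 replicate 2 had the fewest genes with a count.

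The 24 libraries separated by medium along the first principal component of the 500 most variable genes, which held 64.5% of their variance. Auxin libraries lay between -67.7 and 0.475 on this axis and hormone-free libraries between 26.9 and 60. On auxin, PG (mean -66.6 ± 1.10, SD, n = 3) lay next to EI (-61.5 ± 6.87), followed toward the hormone-free side by G1 (-43.3 ± 8.21) and G2 (-12.4 ± 12.5). On hormone-free medium the mean of H lay nearest to the auxin cultures (31.9 ± 4.25), and T1, T2 and C1 lay between 46.3 and 52.9 on average. The C1 libraries spread widely on this axis (SD 17.3), and C1 replicate 2 (26.9) was the single hormone-free library nearest to auxin. The second component, with 12.4% of the variance, spread the stages within each medium and pulled the C1 replicates apart (SD 36.4).

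**Figure D1:**
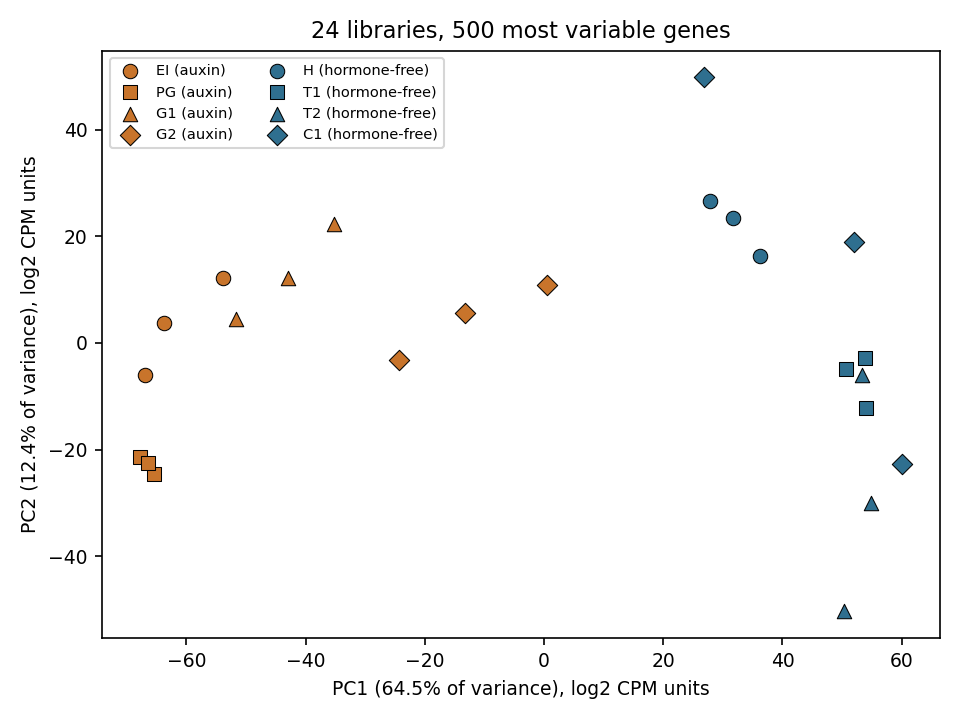
Principal components of the 24 libraries from the 500 most variable genes (log2 CPM, counts scaled to the size of the library). Each point is 1 library, orange on auxin and blue on hormone-free medium, with the marker giving the stage. All auxin libraries lie at or below 0.475 on PC1 and all hormone-free libraries at or above 26.9.

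Euclidean distances over these genes averaged 107 between libraries of different media, 57.9 between stages on auxin and 63.0 between stages on hormone-free medium. The distance between replicates of 1 stage averaged 30.6 on auxin and 45.8 on hormone-free medium. It was 70.5 in C1 and 18.7 in PG. The step from G2 to H, the neighbouring stages on either side of the transfer, measured 70.8 on average, more than any other step between neighbouring stages (44.2 for EI to PG, 54.1 for G1 to G2, 56.2 for T1 to T2, 56.4 for H to T1, 60.7 for PG to G1 and 67.3 for T2 to C1). Over all tested genes this order did not hold, with 179 for G2 to H beside 189 for PG to G1, 185 for T1 to T2 and 209 for T2 to C1. The 500 genes were chosen for their variance over all 24 libraries, which raises the distance between media.

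A large part of the transcriptome was expressed at different levels in the 2 sets of stages. By the quasi-likelihood test of edgeR, 11398 of 23337 genes tested (48.8%) passed a Benjamini-Hochberg adjusted p of 0.05, with 6323 (27.1%) higher and 5075 (21.7%) lower on hormone-free medium. Of these, 6178 differed by no more than 2-fold and 5220 (22.4% of all genes tested) by more, of which 2786 (11.9%) were higher and 2434 (10.4%) lower. More than 8-fold differences were found for 601 genes that were higher and 435 that were lower. The median log2 difference over all genes tested was 0.06. These counts treat each library as a sample of its stage. With the counts of each stage summed, so that 4 stages stood against 4, 2868 genes passed, 2790 of them among the 11398 and in the same direction.

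A stricter view that needs no model gave fewer genes. In 746 genes (3.20%) all 12 libraries of one medium lay above all 12 of the other, 335 (1.44%) in favour of hormone-free medium and 411 (1.76%) in favour of auxin. This count was 1234 without G2 and 1179 without C1, and leaving out libraries can only keep or raise it. With stage means in place of libraries, 4568 genes (19.6%) showed no overlap, 2415 (10.3%) higher and 2153 (9.23%) lower on hormone-free medium. The expression of many genes also moved within a medium: stages differed within auxin for 4887 genes (20.9%) and within hormone-free medium for 8798 (37.7%). Of the 5220 genes with a more than 2-fold difference between media, 2190 passed neither of these tests within a medium.

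Among genes without a name in the sources used here, the largest differences that involved no overlap and at least 10 CPM in one medium were those of VIT_03s0088g00700 and VIT_18s0089g00950, higher on auxin, and of VIT_04s0008g05150 and VIT_15s0048g00550, higher on hormone-free medium. Absence of overlap was part of the rule that chose them and is no finding. VIT_18s0089g00950 had 20.8 to 283 CPM on auxin (median 172) and 0 to 6.01 on hormone-free medium (median 0.228). VIT_03s0088g00700 had 0.829 to 67.8 CPM on auxin and at most 0.180 CPM afterwards. In the other direction, VIT_15s0048g00550 had at most 2.75 CPM on auxin and 10.7 to 97.0 CPM (median 46.1) on hormone-free medium. Its stage mean was 1.27 CPM in G2, 12.5 CPM in H and 80.3 CPM in T2. VIT_04s0008g05150 went from at most 1.40 CPM on auxin to between 1.6 and 96.0 CPM.

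A larger share of the difference lay between G2 and H for genes higher on auxin than for genes higher on hormone-free medium. For each gene with a more than 2-fold difference, the log2 difference from G2 to H was divided by that between the media. The median share was 0.85 (quartiles 0.48 and 1.21) for the 2434 genes lower on hormone-free medium and 0.43 (quartiles 0.06 and 0.83) for the 2786 that were higher. Without G2 replicate 3 the medians were 0.87 for the lower and 0.52 for the higher genes. With G1 and G2 against H and T1 alone they were 0.89 and 0.6. The difference between media is then taken over nearer stages, and a steady drift alone would give a larger share. These 2 values are therefore not comparable with the others. The step itself passed an adjusted p of 0.05 for 27.9% of all genes tested. It passed in the same direction and made up more than 0.5 of the difference between media in 1128 of the lower genes (46.3%) and in 761 of the higher genes (27.3%). For 231 of the lower and 601 of the higher genes the change from G2 to H ran against the difference between media. These counts include steps that did not pass the test. Of the 832 genes with an opposite change, the step passed in 47. The G2 and H libraries enter both numbers of the share, and the 2 directions were compared as a description, with no test.

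**Figure D2:**
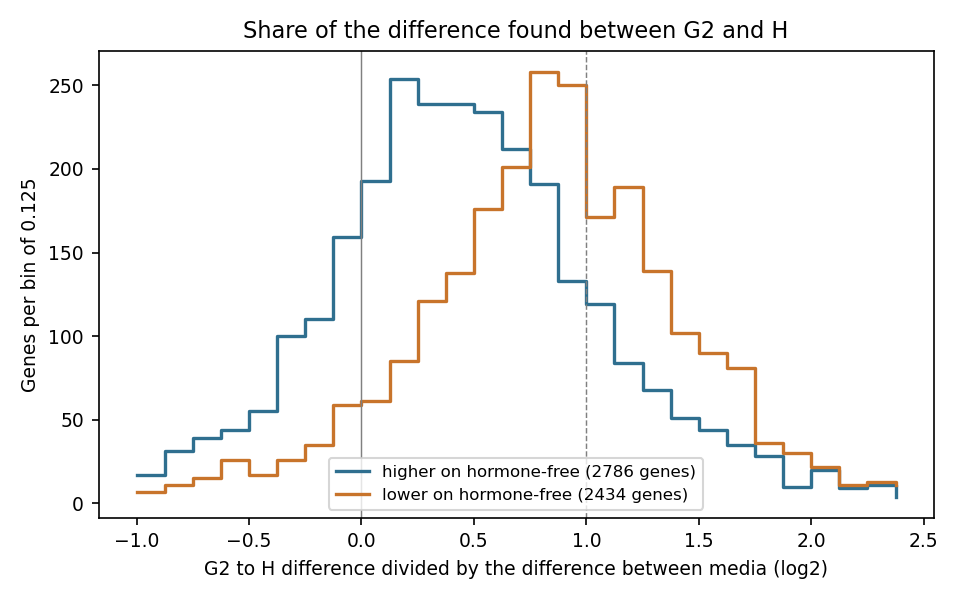
Genes per bin of the share of the log2 difference between media that lay between G2 and H, for the 2434 genes lower (orange) and the 2786 genes higher (blue) on hormone-free medium. Lines at 0 and 1 mark no change and the whole difference, and 53 genes of each direction lie outside the plotted range. The lower genes gather nearer to 1 (median 0.85) than the higher genes (median 0.43).

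Genes annotated for auxin were among those with large differences. Of 23 tested genes whose gene ontology (GO) terms, as assigned by the authors, named response to auxin or auxin signalling, transport, metabolism or homeostasis, 9 were lower and 4 higher on hormone-free medium, with a median log2 difference of -0.30 against 0.06 over all genes tested. Of the 9 lower genes, 7 differed by more than 2-fold, as did 3 of the 4 higher genes. Over all genes tested, 21.7% were lower and 27.1% higher, 10.4% and 11.9% by more than 2-fold. The share of the auxin list called was 56.5%, beside 48.8% of all genes. The lists hold only genes with GO terms in the part of the annotation at hand, 901 of the genes tested, of which 45.4% were called.

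VIT_07s0141g00270, annotated as responding to auxin and located in the nucleus, had 34.6 to 130 CPM on auxin (median 46.4) and 0.248 to 4.10 CPM on hormone-free medium (median 1.65). Its log2 difference was -4.95 ± 0.31 (SE, adjusted p = 3.47e-10), and nearly all of it lay between G2 (mean 39.2 CPM) and H (1.10 CPM). Its stage means were 3.07 CPM in T1, 3.15 CPM in T2 and 1.07 CPM in C1 (adjusted p = 0.0364 between stages on hormone-free medium).

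VIT_12s0134g00230, annotated for responses to auxin and to light, had 3.12 to 58.7 CPM on auxin and 0 to 1.88 CPM on hormone-free medium, a log2 difference of -4.99 ± 0.39 (adjusted p = 6.06e-09). It was highest in G2 (mean 41.7 CPM), the last stage before the transfer, and stood at 1.58 CPM in H. Stages within auxin differed for this gene (adjusted p = 0.0147).

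VIT_11s0016g03050, a transporter annotated for auxin homeostasis, was lower on hormone-free medium. Its stage means were 47.3 CPM in EI, between 24.1 and 34.5 CPM in the later auxin stages, 13.8 CPM in H and 5 CPM in C1, with a log2 difference between media of -1.77 ± 0.16 (adjusted p = 5.00e-08). The step from G2 to H alone did not pass the test (log2 difference -0.80, adjusted p = 0.0643).

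In the opposite direction, VIT_07s0151g00290, annotated for auxin-activated signalling and for the patterning of xylem and phloem, had 0.443 to 2.70 CPM on auxin and 6.09 to 82.9 CPM on hormone-free medium. The log2 difference was 4.36 ± 0.32 (adjusted p = 3.02e-09). Its stage means were 1.99 CPM in G2, 6.85 CPM in H, 17.9 CPM in T1 and 58.2 CPM in T2. In C1 the libraries held between 7.19 and 82.9 CPM, so that this stage could not be ordered against T2. These 4 genes were named because their libraries did not overlap.

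**Figure D3:**
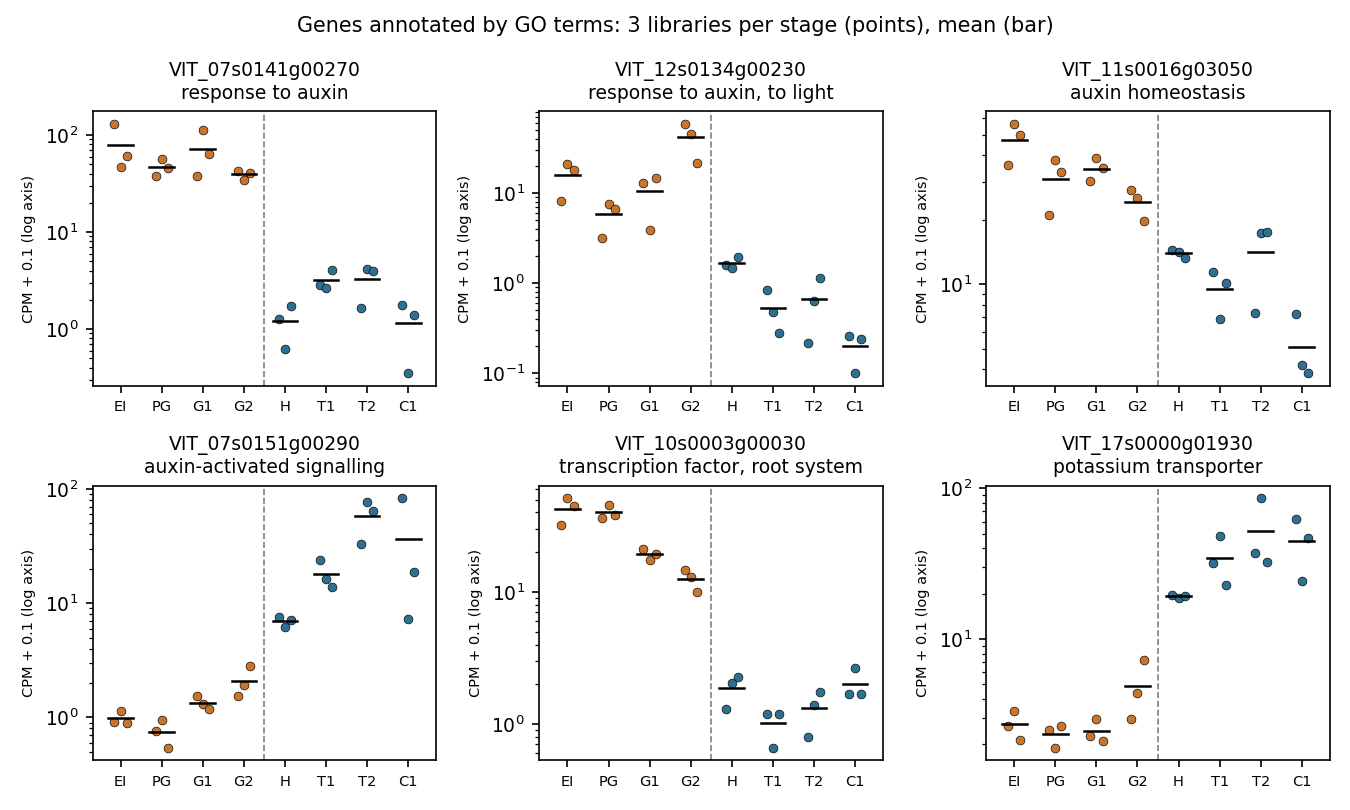
CPM plus 0.1 on a log axis in each of the 24 libraries (points; bars are stage means of 3 libraries) for 6 genes described by their GO terms, with the change of medium as a dashed line. The first 3 genes and the transcription factor are lower, VIT_07s0151g00290 and VIT_17s0000g01930 higher, on hormone-free medium, and the libraries of the media do not overlap because this was required of named genes.

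The cytokinin response regulators moved in different directions. RRA1, an A-type regulator, was high on auxin medium with 30.8 to 95.1 CPM (median 72.8) and low on hormone-free medium with 3.1 to 50.7 CPM (median 12.4). The log2 difference was -2.27 ± 0.26 (adjusted p = 7.24e-07). The groups overlapped through T1, whose mean of 39.2 CPM lay near that of G2 (42.6 CPM), whereas H (7.09 CPM) and T2 (8.42 CPM) lay far below. RRA1 thus dropped at the transfer, was higher again in T1 and low in T2, and stages within hormone-free medium differed (adjusted p = 0.00267).

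RRB3, a B-type regulator, had 27.3 to 52.9 CPM on auxin and 55.6 to 170 CPM on hormone-free medium, without overlap. Its log2 difference was 1.03 ± 0.15 (adjusted p = 1.82e-05). No difference between stages of 1 medium passed the test for this gene (adjusted p = 0.648 within auxin and 0.595 within hormone-free medium). RRB5, another B-type regulator, had medians of 11.5 CPM on auxin and 10.6 CPM on hormone-free medium, and its log2 difference of -0.05 ± 0.089 did not pass (adjusted p = 0.676). Of 9 tested genes annotated for cytokinin, 2 were higher and 2 lower, 44.4% in all, near the 48.8% of all genes tested.

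Abscisic acid, gibberellin and light were represented by single named genes. NCED2, which encodes a dioxygenase of abscisic acid synthesis, had 1.05 to 4.86 CPM on auxin (median 2.04) and 2.98 to 21.9 CPM on hormone-free medium (median 7.93), a log2 difference of 1.92 ± 0.26 (adjusted p = 6.53e-06). It was highest in T1 (mean 15 CPM). Of 19 tested genes annotated for the response to abscisic acid, 8 were higher and 7 lower, 78.9% in all, with a median log2 difference of -0.18. Over all genes tested, 48.8% were called, 27.1% higher and 21.7% lower. GAI1, a DELLA repressor of gibberellin responses, did not pass (log2 difference -0.20 ± 0.19, adjusted p = 0.419). PHYE, a phytochrome that senses red light, had 8.90 to 34.6 CPM on auxin and 37.8 to 136 CPM on hormone-free medium without overlap, although all cultures were kept in the dark. Its log2 difference was 1.62 ± 0.19 (adjusted p = 9.44e-07).

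Several genes of metabolism and transport were higher on auxin. GOX was the most abundant of them, with 293 to 1770 CPM (median 691) on auxin and 108 to 411 CPM (median 138) on hormone-free medium, a log2 difference of -2.09 ± 0.22 (adjusted p = 2.64e-07). It was highest in PG (mean 1610 CPM) and stood at 138 CPM in H and 136 CPM in T1. The groups overlapped through T2 replicates 2 and 3. INT3, an inositol transporter, had 11 to 23.6 CPM on auxin and 4.39 to 9.73 CPM afterwards, with no overlap and a log2 difference of -1.38 ± 0.10 (adjusted p = 3.84e-09).

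INT2, of the same transporter family, had 69.8 to 139 CPM on auxin. On hormone-free medium it ran from 1.85 CPM in T1 to 363 CPM in C1 replicate 2, and C1 replicate 1 held 2.79 CPM. C1 replicates 2 and 3 (153 CPM) lay above every auxin library. The log2 difference was -2.17 ± 0.43 (adjusted p = 0.000338), but -3.14 without C1, -1.21 without T1 and -0.91 (adjusted p = 0.306) in a fit without stage terms. MLO6, a membrane protein of the MLO family, had a log2 difference of -1.57 ± 0.21 (adjusted p = 6.97e-06), from 53.7 to 427 CPM on auxin and 14.7 to 179 CPM on hormone-free medium. It was highest in G2 (mean 361 CPM). The call of MLO6 was lost with stage sums (log2 difference -1.50, adjusted p = 0.151). GS had a log2 difference of -1.23 ± 0.24 (adjusted p = 0.000394).

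**Figure D4:**
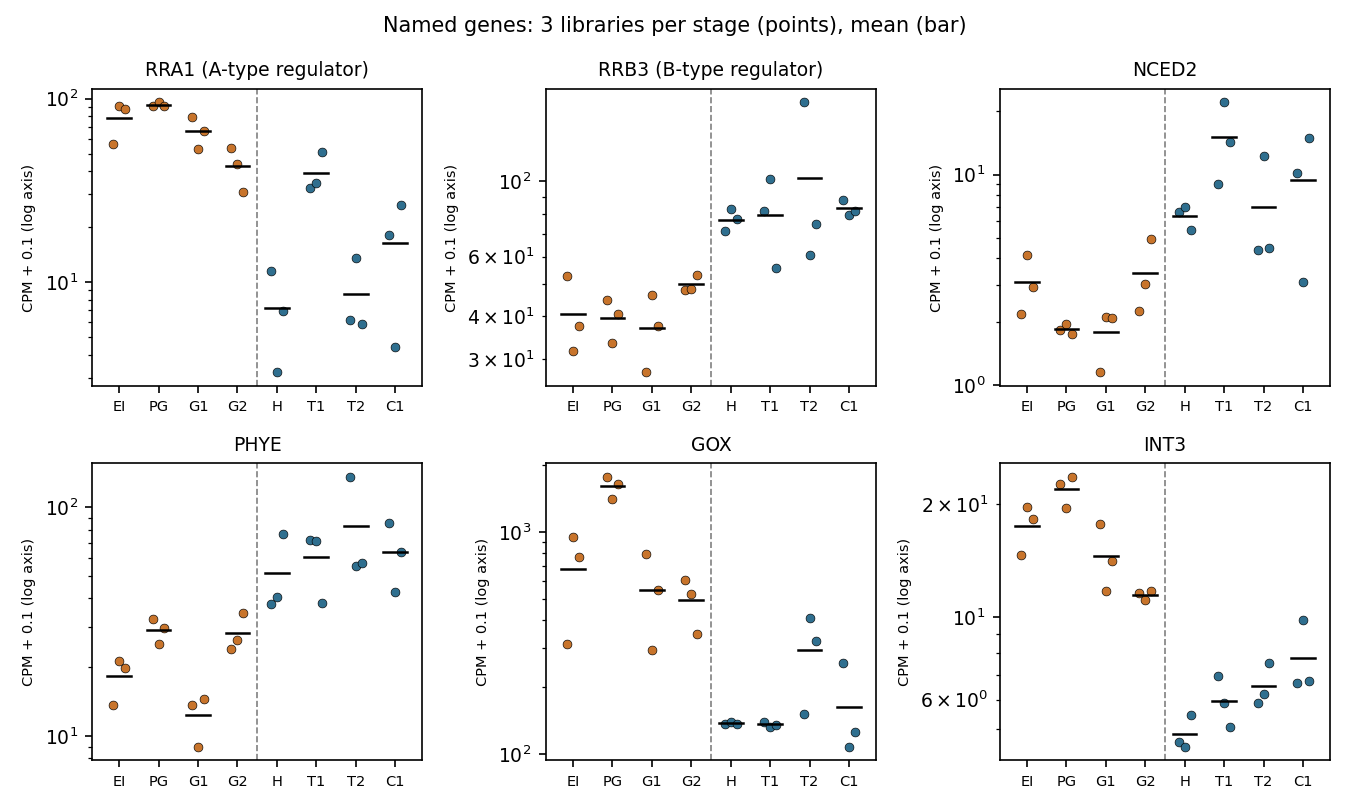
CPM plus 0.1 on a log axis in each of the 24 libraries (points; bars are stage means of 3 libraries) for 6 named genes, with the change of medium as a dashed line. RRB3, PHYE and INT3 show no overlap between media, RRA1 overlaps through T1, and GOX overlaps through T2.

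Of all 45 genes that the study's supplementary data at hand pair with a name, 44 passed the filter on low counts and 24 of these (54.5%, beside 48.8% of all genes) were called, 12 in each direction. CIPK16 did not pass the filter. More than 2-fold differences were found for 4 that were higher and 10 that were lower. Besides those above, BG1 was higher on hormone-free medium (log2 difference 3.04 ± 0.46, adjusted p = 2.26e-05), at levels of at most 13.2 CPM, and MYBC2-L1, a MYB repressor of flavonoid synthesis, was lower (-2.80 ± 0.52, adjusted p = 0.000193) at levels of at most 1.53 CPM. SAMDC, an enzyme of polyamine synthesis, was moderately higher (0.82 ± 0.12, adjusted p = 2.34e-05) and reached 215 CPM on average in T2. The call of SAMDC was lost with stage sums (adjusted p = 0.0733) and with G1 and G2 against H and T1 (log2 difference 0.28, adjusted p = 0.196), and that of MYBC2-L1 with stage sums (adjusted p = 0.0519). Besides these and the 3 floral regulators described below, the called genes were CYT3, CEB1, a regulator of cell elongation in berries, SOS1, a sodium antiporter, MDH, HIR, CUL4 and SUC11, all higher, and CIPK01, a protein kinase that binds calcium sensors, and ATG6, a gene of autophagy, both lower. The log2 differences of these 9 genes lay between -0.77 and 0.91. Each lost its call with stage sums and under at least 1 other of 40 alternative fits. Calls were lost in 26 fits for SOS1, 14 for ATG6, 6 each for HIR and CUL4, 3 for CEB1, and 2 each for CYT3, CIPK01, MDH and SUC11. The log2 difference of HIR was 0.02 (adjusted p = 0.914) and that of CEB1 0.25 (adjusted p = 0.48) with G1 and G2 against H and T1, and that of CUL4 was 0.17 (adjusted p = 0.335) without H. The 20 named genes that were not called had log2 differences between -0.51 and 1.36.

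Of the markers of the floral explant, the floral regulators were low in all stages but not evenly so. The summed level of AG, AP1 and MADS4, regulators of floral organ identity, ranged from 1.17 to 42.2 CPM on auxin (median 2.36) and from 0.0348 to 1.99 CPM on hormone-free medium (median 0.750). The high values came from G1 replicates 1 and 3 (42.2 and 22.2 CPM), and without them, a choice made after the values had been seen, the auxin range was 1.17 to 7.40 CPM. MADS4 was lower on hormone-free medium (log2 difference -3.49 ± 0.53, adjusted p = 2.60e-05), as was AG (-2.73 ± 0.69, adjusted p = 0.00305, but 0.0727 with stage sums), which had no count in 1 auxin library. AP1 was lower too (-1.04 ± 0.39, adjusted p = 0.0342), and this call was lost in 17 of 40 alternative fits. The part of explant tissue in the differences between media was not tested. The 12 tested genes annotated for pollen development were also chosen as explant markers. By contrast, they summed to between 417 and 506 CPM on auxin and between 488 and 612 CPM on hormone-free medium. Of these, 5 were higher and 3 lower (66.7% called, beside 48.8% of all genes tested). Over the 8 stages, the exact permutation p was 0.0286 for the floral sum and for the pollen sum, in opposite directions. That is the smallest p the design allows.

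No difference in the summed level of genes of dividing cells passed the test. Genes annotated for the mitotic cell cycle or DNA replication summed to 2460 to 3080 CPM on auxin and 2240 to 3070 CPM on hormone-free medium, and the exact permutation p over the 8 stages was 0.714. The lowest sums were those of C1 replicates 2 and 3, at 2240 and 2320 CPM. Over all genes tested, 48.8% were called. Of 41 tested mitotic genes, 5 were higher and 3 lower (19.5% called). Of 14 replication genes, 2 were higher and 2 lower (28.6% called). One of the latter, VIT_01s0010g01830, an annotated helicase, had 18.5 to 52.1 CPM on auxin and 1.70 to 8.49 CPM on hormone-free medium (log2 difference -2.60 ± 0.18, adjusted p = 1.28e-09). FEN1, a flap endonuclease of replication, did not pass (-0.06 ± 0.12, adjusted p = 0.673). Genes annotated for photosynthesis, together with LHCA2, an antenna protein of photosystem I, summed to at most 37.3 CPM in any library.

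Transcription factors and transporters contained members with large differences in both directions. Of 54 tested genes annotated for DNA-binding transcription factor activity, 15 were higher and 17 lower (59.3% called, beside 48.8% of all genes tested), 10 and 8 of them by more than 2-fold. Over all genes tested, 27.1% were higher and 21.7% lower, 11.9% and 10.4% by more than 2-fold. VIT_10s0003g00030, a transcription factor annotated for the root system, had 9.92 to 51.2 CPM on auxin and 0.562 to 2.57 CPM on hormone-free medium (log2 difference -4.18 ± 0.17, adjusted p = 7.21e-12). Its stage mean had already come down from 42.6 CPM in EI to 12.5 CPM in G2 before the transfer. VIT_11s0016g04940, annotated for transcription factor activity and for repression of translation, had medians of 29.9 CPM on auxin and 14.6 CPM on hormone-free medium (adjusted p = 1.45e-05).

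Of 36 tested genes annotated for transmembrane transport, 11 were higher and 11 lower (61.1% called, beside 48.8% of all genes tested). VIT_17s0000g01930, an annotated potassium transporter, had 1.80 to 7.13 CPM on auxin and 18.5 to 85.6 CPM on hormone-free medium (log2 difference 3.62 ± 0.22, adjusted p = 2.84e-10). VIT_17s0000g05860, annotated as a lipid transporter, went from 41.0 to 85.4 CPM on auxin to 12.0 to 39.0 CPM (log2 difference -1.29 ± 0.087, adjusted p = 1.00e-09). Stages differed within both media for this gene, with the lowest mean in T2 (14 CPM).

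Of 24 tested genes annotated for the cell wall, 10 were higher on hormone-free medium, 9 of them by more than 2-fold, and 4 were lower (58.3% called). The shares over all genes tested were 27.1% higher, 11.9% higher by more than 2-fold, and 21.7% lower. VIT_16s0022g01430, annotated for the cell wall, plasmodesmata and the response to karrikin, had 2.53 to 35.1 CPM on auxin and 132 to 477 CPM on hormone-free medium (log2 difference 4.11 ± 0.24, adjusted p = 2.09e-10). It went from 22.7 CPM in G2 to 193 CPM in H and remained between 169 and 301 CPM in the stage means that followed. VIT_10s0003g05420, an oxidoreductase annotated for the cell wall, defence and oxidative stress, went the other way, from 24 to 173 CPM on auxin to 0.140 to 19.1 CPM (log2 difference -3.56 ± 0.40, adjusted p = 7.57e-07). VIT_10s0092g00240, an annotated alpha-glucosidase, was also lower (log2 difference -1.82 ± 0.19, adjusted p = 2.16e-07).

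Over all genes tested, 48.8% were called, 27.1% higher and 21.7% lower. In the response to oxidative stress, 8 of 24 tested genes were higher and 9 lower, 70.8% in all. VIT_08s0007g06700, a thioredoxin-disulfide reductase, was lower by a log2 difference of -2.43 ± 0.22 (adjusted p = 5.28e-08), and VIT_04s0023g02420, a MAP kinase, was higher by 1.34 ± 0.18 (adjusted p = 4.28e-06). In lipid synthesis, 10 of 34 genes were higher and 10 lower, among them VIT_18s0001g00810, a sterol methyltransferase, with 8.94 to 20.4 CPM on auxin and 22.3 to 87.0 CPM on hormone-free medium (log2 difference 1.49 ± 0.16, adjusted p = 3.55e-07). Of 101 tested chloroplast genes 31 were higher and 20 lower (median log2 difference 0.08). Of 96 mitochondrial genes 23 were higher and 14 lower (0.04). The shares called were 50.5% and 38.5%, near and below that of all genes tested. VIT_12s0028g02340, annotated for both organelles, the cell wall and copper binding, was abundant throughout and had 491 to 845 CPM on auxin and 887 to 2420 CPM on hormone-free medium (log2 difference 1.08 ± 0.11, adjusted p = 1.60e-07). VIT_16s0039g00700, a maltose transporter of the chloroplast envelope, was lower (log2 difference -0.74 ± 0.12, adjusted p = 4.45e-05).

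The lists with the smallest shares called were RNA splicing (2 of 14 genes, both higher), the mitotic cell cycle (19.5%) and the ribosome (23.1%, 4 higher and 2 lower of 26). Of 20 tested genes annotated for embryo development, 5 were higher and 0 lower on hormone-free medium, with a median log2 difference of 0.27. The share called was 25%, beside 48.8% of all genes tested, of which 27.1% were higher, so that the number of higher members lay near the background. This list had no lower member in 38 of the 40 alternative fits as well, while its number of higher members ran from 0 to 9. Of 16 root development genes 3 were higher and 6 lower. Against the same 27.1% higher and 21.7% lower over all genes, the other lists gave the following counts. Among the hormones, 2 of 6 gibberellin genes and 2 of 6 jasmonic acid genes were higher with 0 lower, and 1 of 6 ethylene genes was higher and 3 lower. Among the responses, 6 of 26 light genes were higher and 8 lower, 5 and 2 of 12 hypoxia genes, 7 and 8 of 27 genes of water deprivation or salt, and 13 and 10 of 51 defence genes. In metabolism and structure, 9 of 41 carbohydrate genes were higher and 9 lower, 3 and 2 of 7 phenylpropanoid genes, 3 and 4 of 27 chromatin genes, 1 and 2 of 8 microtubule genes, and 4 and 3 of 11 genes of flower development. Of 4 photosynthesis genes 1 was lower. Lists overlap in their members, and the counts stand in place of a test of any list.

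**Figure D5:**
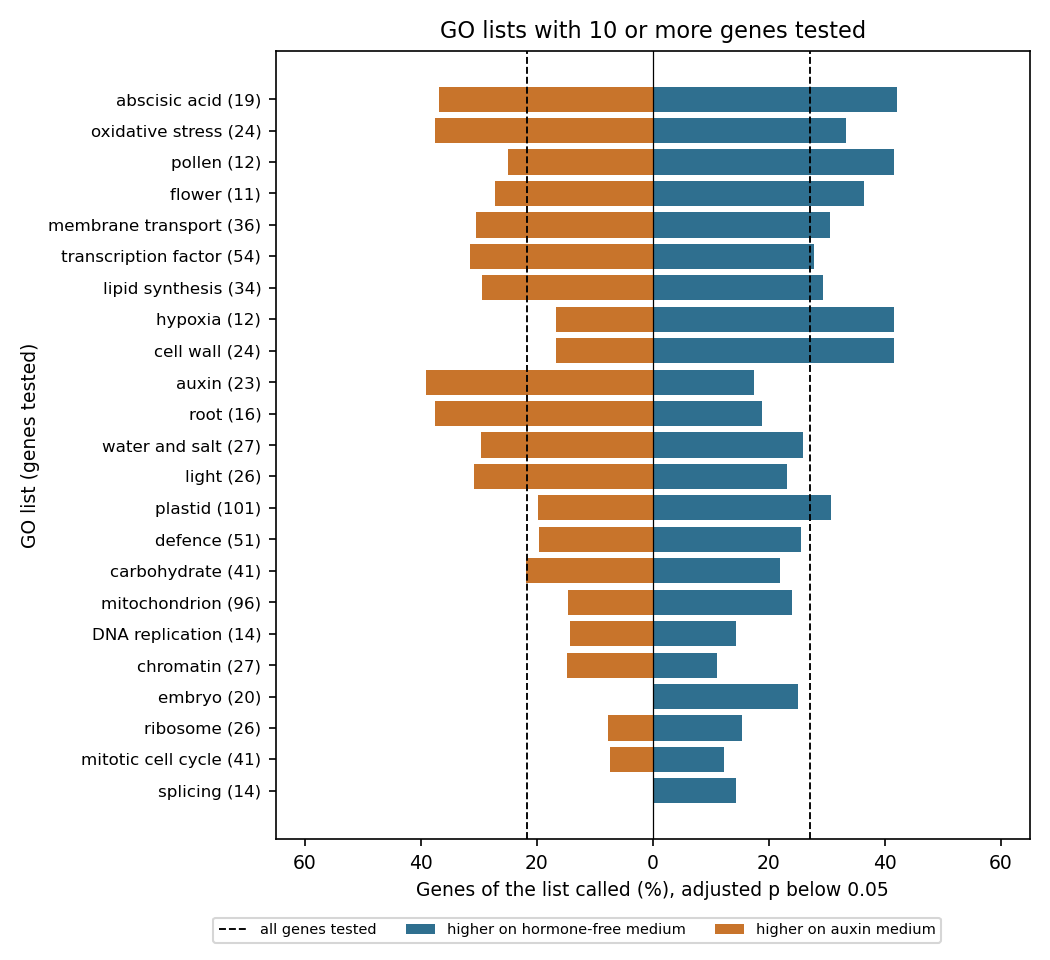
Percentage of the tested genes of each GO list that were called higher (blue, to the right) or lower (orange, to the left) on hormone-free medium, for lists with 10 or more tested genes (numbers in brackets). Dashed lines give the percentages over all genes tested, 27.1% and 21.7%. Among others, the auxin and root lists reach farther to the left than to the right. The cell wall, embryo, hypoxia, plastid and mitochondrion lists, among others, reach farther to the right. The right-hand bars of the embryo list (25%) and the mitochondrion list end short of the 27.1% line.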

How the data were processed

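The deposited table holds raw counts for each open reading frame and library, which the authors did not normalize. Per the study's methods, rRNA-depleted paired-end reads were mapped with BBMap to the 12X grapevine assembly and counted with R packages. The treatment of strand and of reads that match several genes was not found in the study's text or labels, so that values of near-identical, overlapping or antisense genes are uncertain. Of the gene identifiers, 0 matched the RefSeq list at hand; names, GO terms and phylostrata come from the parts of the study's supplementary tables at hand.

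Genes passing filterByExpr (23337 of 29971) were fitted with edgeR 4.0.16 (quasi-likelihood test, TMM factors 0.800 to 1.20, stage as the factor with 8 levels). The contrast was the mean of the 4 hormone-free stages minus that of the 4 auxin stages, with Benjamini-Hochberg adjustment over all genes tested and a threshold of 0.05. Log2 differences are therefore averages of stage values, and can differ from the ratio of mean CPM. CPM used TMM factors, and distances log2 CPM with a prior count of 2. Stage means of library values were compared by exact permutation. Over 24 replicate pairs, chi-square divided by its degrees of freedom was at least 8.45, so that no pair agreed within sampling noise. This spread does not show whether the replicates were separate cultures.

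Named genes were all those with a name, and those of each GO list, up to 3 per direction, and over all genes, 2 per direction, with the largest change among called genes without overlap and with at least 10 CPM in one medium (479 genes). Alternatives were a fit without stage terms, stage sums, all 40 libraries, DESeq2 1.42.0, DESeq2 size factors, no filter, unadjusted p, a test of the fold itself, a replicate block, 4 stages around the transfer, and leaving out libraries or stages. Added after seeing the data were floral markers without G1 replicates 1 and 3, library values without single libraries, the step from G2 to H under these alternatives, and another way to end runs of neighbouring genes. The members and lists were chosen with earlier results of these data known.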

Additional observations from a re-analysis of the deposited data

How the results depend on the processing

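The direction of the comparison held for nearly all genes: of the 11398 genes called, those called again under any alternative kept their sign, except 6 in the fit of G1 and G2 against H and T1. The number called depended on the unit of replication. It was 7415 (3864 of them higher on hormone-free medium) in the fit without stage terms, which counts differences between stages as spread, and 2868 (1361 higher, 1507 lower) with stage sums. Stage sums gave 2523 genes with more than 2-fold (1185 higher, 1338 lower), and a test of the fold itself against 2 gave 2919. With G1 and G2 against H and T1 alone, 4080 genes were higher and 4878 lower, 1787 and 2515 of them by more than 2-fold. The balance of directions thus depended on the fit. Of the genes called, 55.5% were higher in the main fit and 45.5% with G1 and G2 against H and T1. That share was 49.7% with DESeq2, 48.4% without PG and 47.5% with stage sums. DESeq2 called 12672 genes, an unadjusted p of 0.05 called 12861, and the other alternatives between 8836 (without PG) and 12332 (without C1 replicate 1). Genes without overlap numbered 1234 without G2, 1179 without C1, and 750 to 1047 when single libraries were left out. Leaving out libraries can only keep or raise this number, so that these values are no test of it. Over all tested genes, distances between media were 1.47 times those between auxin stages and 1.2 times those between hormone-free stages, which were 1.23 times those between auxin stages. Without single libraries, the difference in the share of the 10 most abundant genes lay between -7.84 and -6.42 percentage points. ICE1, not called, had a log2 difference of -0.34 that turned to 0.49 (adjusted p = 0.025) with G1 and G2 against H and T1; the cause was not tested. Of 2592 values of named genes under alternatives, 87 were no longer called, 18 became so and 1 turned. The cultures with the same replicate number did not deviate together (mean correlation -0.0135 over 84 pairs, 23 of them over 0.1), and the fit with a replicate block called 11061 genes. Depth limits the genes of few counts, such as AG with 41 counts over the hormone-free libraries.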

Other observations

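Genes of different evolutionary age, as dated by the phylostrata in the parts of the supplementary tables at hand (3839 genes), differed in the share that was called. Of 369 tested genes that arose between Embryophyta and Magnoliophyta (phylostrata 12 to 14), 33.1% were higher and 23.0% lower on hormone-free medium, beside 27.1% and 21.7% of all genes tested. Of 362 genes of phylostrata 7 to 11, 32.6% were higher and 20.2% lower. In the youngest class, Eudicots to *V. vinifera* (235 genes tested of 447, phylostrata 15 to 18), 20.4% were higher and 23.0% lower. These were 48 and 54 genes, and no other of the 5 classes had more lower than higher genes. The classes were counted in the main fit alone, and the balance of directions over all genes depended on the fit. The 1325 oldest genes (phylostratum 1) had 27.8% higher and 21.7% lower, and of 765 genes of phylostrata 2 to 6, also an old class, 24.2% were higher and 21.3% lower, which is below the share of all genes as well. No test was run on these classes.

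Some genes with a more than 2-fold difference lay in runs of neighbours that differed in the same direction. Counting runs of at least 4 consecutive tested genes on one scaffold, there were 36 runs of higher genes (197 of 2786 genes) and 42 runs of lower genes (204 of 2434 genes). How many runs chance would give was not tested. Where an untested gene ended a run, an alternative chosen after seeing the data, there were 29 runs (149 genes) and 22 runs (104 genes). The longest held 14 genes on chromosome 16, all higher on hormone-free medium with a median log2 difference of 2.45. Reads shared between near-identical neighbours could enter such runs, and their part was not tested. The runs were looked for after the values had been seen.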
